A study of Homo sapiens with 8 samples.

Results

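Cells cut small RNAs out of longer RNA and use them as guides to silence matching transcripts, and the RNA levels of 10 genes that carry out these steps were examined in 2 clear cell renal cell carcinoma (ccRCC) cell lines. The genes were DROSHA, DGCR8, XPO5, DICER1, TARBP2, AGO1, AGO2, AGO3, AGO4 and TNRC6A, grouped by their function. Their levels were the summed values of the RefSeq transcript entries of each symbol, 10 of 22674 genes in all. The cell lines were A498 and 786-O, both labelled as ccRCC of the kidney, with 4 libraries each. In each line, 2 libraries came from cells given a non-targeting control (NTC) siRNA, 1 from cells given siRNA #1 and 1 from cells given siRNA #2 against the long non-coding RNA SLINKY. All cells were transfected with a lipid reagent at 50 nM siRNA for 16 hr per the labels, and the study's methods place RNA isolation later than that. All cells therefore carried siRNA that loads onto Argonaute proteins, and untransfected cells were not analysed here. The control was a pool of non-targeting siRNAs and the SLINKY siRNAs were single custom sequences per the study's methods, while the labels call all siRNAs pools. The lines differ in culture medium (DMEM for A498, RPMI-1640 for 786-O), so line and medium cannot be told apart.

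In the microRNA pathway, the nuclease DROSHA and its RNA-binding partner DGCR8 form the Microprocessor, which cuts a hairpin precursor from the primary transcript in the nucleus. Exportin-5, the product of XPO5, carries the hairpin to the cytoplasm, where DICER1 with its double-strand RNA-binding partner TARBP2 trims it to a duplex. One strand is loaded onto an Argonaute protein (AGO1 to AGO4), of which AGO2 is the one known for efficient cutting of a fully matched target, and TNRC6A, a GW182 scaffold protein, links Argonaute to deadenylation and decay of the target. A transfected siRNA duplex enters at the Argonaute step and does not need DROSHA or XPO5.

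The depth, estimated from the values themselves, was 25100000 to 64600000 mapped reads per library. This is a rough figure, since it rests on 16 to 26 single-exon genes per library and an assumed fragment length. SLINKY, the targeted RNA, was at 14.6 and 16.1 FPKM (fragments per kilobase of transcript, relative to the depth of the library) in the A498 NTC libraries and at 1.64 and 3.01 with siRNA #1 and #2. In 786-O it was at 1.45 and 1.39 FPKM with NTC and at 0.0569 and 0.594 with siRNA. Of 13 markers of tubule epithelium and ccRCC, 8 averaged at least 1 FPKM in A498 and 7 in 786-O. The kidney lineage factor PAX8 was at 39.2 to 48.1 FPKM in all libraries and PAX2 at 1.06 to 1.84. The ccRCC marker CA9 was at 0.293 to 0.559 FPKM in A498 and at most 0.0229 in 786-O, and the tubule markers LRP2 and UMOD were at or near 0. Of markers of other cell types, PTPRC, CD3E and COL3A1 were at 0 in every library, endothelial markers stayed under 0.04 FPKM, COL1A1 was at 2.87 to 3.42 FPKM in A498 against at most 0.273 in 786-O, and CD68 was at 138 to 151 FPKM in A498 against 1.7 to 5.2 in 786-O. The part of these differences in the results was not tested. No label says that libraries of a group came from separate cultures, so p-values measure the spread between these libraries, which may be technical.

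The 10 genes covered a 76.5-fold range of mean FPKM, a value that is scaled to transcript length and so can be compared between genes. TARBP2 was the highest, at 37.0 ± 3.06 FPKM in A498 and 42.0 ± 5.29 in 786-O (SD, n = 4 each). AGO4 was the lowest, at 0.523 ± 0.0811 and 0.509 ± 0.061 FPKM. Between them the order in A498 was DROSHA, XPO5, TNRC6A, DGCR8, AGO2, AGO1, AGO3 and DICER1, and in 786-O DGCR8 stood above TNRC6A with the rest in the same order. Most neighbours in this order did not overlap between libraries of a line. The exceptions were XPO5 with TNRC6A in A498, TNRC6A with AGO2 in 786-O, and AGO3 with DICER1 in both. DICER1 was therefore the lowest of the processing enzymes, while its partner TARBP2 was the highest gene.

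**Figure D1:**
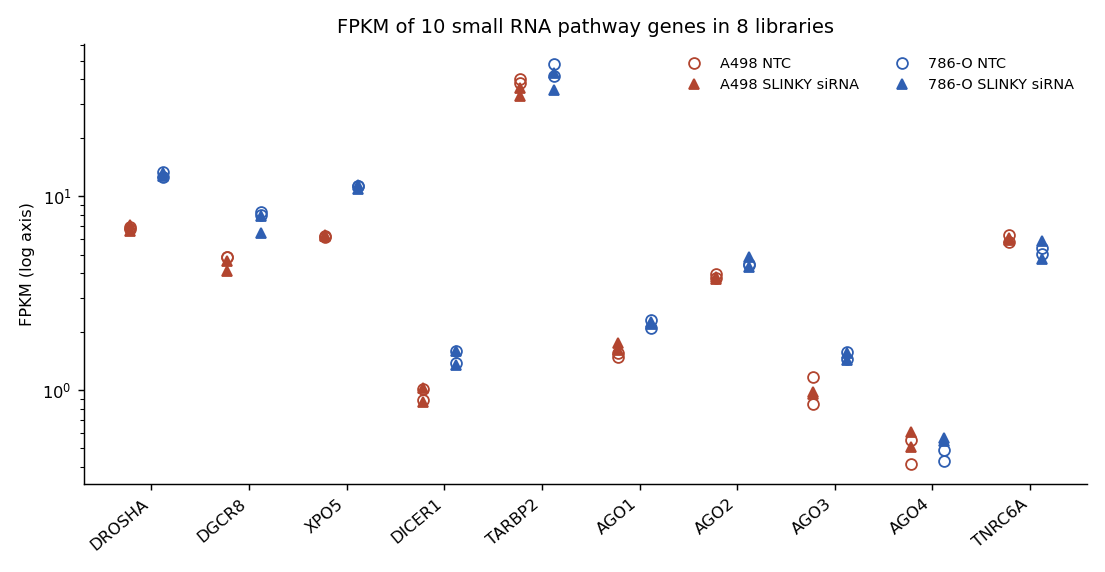
FPKM (log axis) of the 10 genes in each of the 8 libraries, with A498 in red and 786-O in blue, NTC libraries as open circles and SLINKY siRNA libraries as filled triangles. TARBP2 lies highest and AGO4 lowest in both lines, and the colours separate most for DROSHA and XPO5.

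The first comparison asked how the lines differ. Of the 10 genes, 7 averaged at least 1 FPKM in both lines, DICER1 and AGO3 passed this filter through 786-O alone (their A498 means were 0.952 and 0.988 FPKM), and AGO4 was below it. Of the 7, 6 differed between A498 and 786-O (limma, Benjamini-Hochberg adjusted p under 0.05), 5 of them higher in 786-O and 1, TNRC6A, higher in A498. The background was high, since 80.5% of all 11365 genes tested were called, 41.4% as higher in 786-O and 39.1% as higher in A498, so the number of calls among these genes is not a result about them. The libraries of the lines did not overlap for 5 of the 7, beside 75.5% of all genes tested. When low genes were kept in the fit, 7 of the 10 were called, all as higher in 786-O, beside 53.8% of the 22674 genes, which then include many near 0, with 23.8% called as higher in 786-O. The median difference of the 10 was then -0.51 on the log2 scale (A498 minus 786-O).

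The largest fitted differences were those of DROSHA, XPO5 and DGCR8, which act in the nucleus or in export from it. DROSHA (chromosome 5, 31400602 to 31532282, hg19) was at 6.79 and 6.92 FPKM with NTC and 6.64 and 7.07 with siRNA #1 and #2 in A498. In 786-O the values were 13.4 and 12.6 FPKM with NTC and 13.1 and 12.8 with siRNA. Every 786-O library lay above every A498 library, and the log2 difference was -0.91 (95% interval -0.99 to -0.82, SE 0.036, limma adjusted p = 2.03e-07), or 1.88-fold. Of all genes tested, 28.4% differed by more.

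DGCR8 (chromosome 22, 20067755 to 20099400) was at 4.86 and 4.83 FPKM with NTC and 4.64 and 4.12 with siRNA in A498, against 8.31 and 7.96 with NTC and 6.48 and 7.91 with siRNA in 786-O. The groups did not overlap, with 786-O siRNA #1 as the lowest of its line. The log2 difference was -0.72 (interval -0.88 to -0.56, limma adjusted p = 2.87e-05). An antisense non-coding RNA, AC006547.8, lies on the minus strand within the end of DGCR8 (chromosome 22, 20098344 to 20099398) and was at 15.3 to 16.9 FPKM in A498 and 23.9 to 28.9 in 786-O. The library kit does not mark the strand, so reads of DGCR8 and of this RNA cannot be told apart there.

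XPO5 (chromosome 6, 43490068 to 43543812) was at 6.18 and 6.25 FPKM with NTC and 6.22 and 6.34 with siRNA in A498, and at 11.3 in both NTC libraries and 11.4 and 10.9 with siRNA in 786-O. Within a line its libraries were the most alike of all 10 genes, with a coefficient of variation of 1.09% in A498 and 2.13% in 786-O. The log2 difference was -0.83 (interval -0.90 to -0.76, limma adjusted p = 1.37e-07), or 1.78-fold. DROSHA, DGCR8 and XPO5 passed the test in every alternative computed, 19 for each gene.

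**Figure D2:**
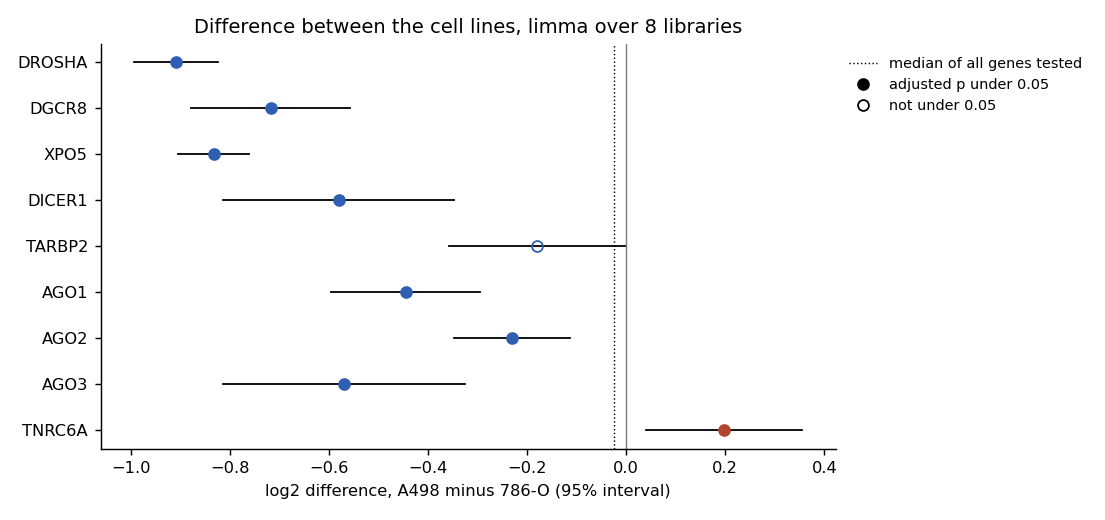
Log2 difference of A498 minus 786-O for the 9 genes tested, with its 95% interval from limma over 8 libraries. Filled points passed an adjusted p of 0.05 (blue, higher in 786-O; red, higher in A498), the dotted line is the median of all genes tested at -0.02, and DROSHA and XPO5 lie farthest from it. DICER1 and AGO3 passed the filter through 786-O alone.

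The 250 bases upstream of the RefSeq start of these 3 genes are shown because the genes had the largest differences between the lines. They are RefSeq sequence of the GRCh38.p14 assembly, read in the direction of the gene, with capitals for CCAAT (or ATTGG on the other strand) and for TGCGCA, the core of the NRF1 motif. The DROSHA window is chr5:31532094-31532343 on the minus strand, the DGCR8 window chr22:20079991-20080240 on the plus strand and the XPO5 window chr6:43576039-43576288 on the minus strand.
DROSHA: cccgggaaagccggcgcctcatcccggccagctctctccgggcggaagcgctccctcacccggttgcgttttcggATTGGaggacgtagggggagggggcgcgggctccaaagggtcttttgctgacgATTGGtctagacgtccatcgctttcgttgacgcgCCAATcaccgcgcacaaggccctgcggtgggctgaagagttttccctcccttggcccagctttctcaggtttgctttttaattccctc
DGCR8: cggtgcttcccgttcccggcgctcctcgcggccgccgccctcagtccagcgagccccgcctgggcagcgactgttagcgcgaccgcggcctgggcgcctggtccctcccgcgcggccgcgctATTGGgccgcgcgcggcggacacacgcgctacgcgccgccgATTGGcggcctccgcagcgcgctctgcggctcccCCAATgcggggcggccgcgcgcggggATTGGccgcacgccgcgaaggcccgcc
XPO5: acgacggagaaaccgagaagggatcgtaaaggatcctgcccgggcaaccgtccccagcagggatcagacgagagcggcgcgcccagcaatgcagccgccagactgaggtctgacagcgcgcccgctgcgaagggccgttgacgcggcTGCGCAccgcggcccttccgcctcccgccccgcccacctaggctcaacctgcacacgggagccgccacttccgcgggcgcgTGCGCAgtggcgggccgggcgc
CCAAT, bound by the factor NF-Y, occurred 3 times in the DROSHA window, 4 times in the DGCR8 window and not in the XPO5 window. TGCGCA occurred 2 times in the XPO5 window and in neither of the others. Windows were given for 9 of the 10 genes, and 6 of the 9 held CCAAT, against 32.0% of all 35116 windows of the same length. TGCGCA was found in XPO5 alone, against 6.89% of all windows. GGGCGG, the GC box, was found in 8 of the 9 genes and in 42.6% of all windows, CCGGAA, a core of ETS motifs, in 3 of the 9 and 14.5%, and neither CACGTG nor TATAAA in any of the 9, with 6.34% and 10.7% over all windows. Both strands were searched, and a gene with several starts counted as holding a motif if any of its windows did. These are matches of letters and no measured sites.

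The hairpins of 3 microRNAs lie within DGCR8 and DICER1, and their mature sequences are shown because they come from the same primary transcripts as these enzymes. Bases 2 to 8, the seed that pairs with targets, are in capitals, and the sequences are those of RefSeq.
hsa-miR-3618: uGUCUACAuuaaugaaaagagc
hsa-miR-1306-5p: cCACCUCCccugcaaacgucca
hsa-miR-1306-3p: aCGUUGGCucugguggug
hsa-miR-3173-5p: uGCCCUGCcuguuuucuccuuu
hsa-miR-3173-3p: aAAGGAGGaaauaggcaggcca
The 5 seeds all differ. In hg19 the MIR3618 hairpin (chromosome 22, 20073269 to 20073356) lies in a 5′ untranslated exon of DGCR8, the MIR1306 hairpin (20073581 to 20073665) lies in its coding sequence, and the MIR3173 hairpin (chromosome 14, 95604256 to 95604323) lies in an intron of DICER1, all on the strand of the host gene. The Microprocessor is known to cut hairpins in the DGCR8 transcript. In 0 of the 8 libraries did any of the 3 hairpin entries reach 0.001 FPKM. These libraries are not made for small RNA, and the entries say nothing of the mature microRNAs.

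Of the cytoplasmic processing pair, DICER1 (chromosome 14, 95552565 to 95623759) was at 0.894 and 1.01 FPKM with NTC and 0.873 and 1.03 with siRNA in A498, and at 1.58 and 1.38 with NTC and 1.59 and 1.34 with siRNA in 786-O. The lines did not overlap. This holds for the sum of its entries, since the highest entry, NM_030621, overlapped (0.504 to 0.894 FPKM in A498 and 0.710 to 1.54 in 786-O). That entry averaged 0.936 FPKM over all libraries, so the fit with the highest entry per gene left DICER1 out. With low genes kept in the fit, since the filter had passed DICER1 through 786-O alone, the log2 difference of the sum was -0.58 (interval -0.80 to -0.36, limma adjusted p = 0.0022). TARBP2 (chromosome 12, 53894705 to 53900215) was at 40.3 and 38.2 FPKM with NTC and 33.1 and 36.3 with siRNA in A498, against 41.7 and 48.1 with NTC and 35.2 and 43.0 with siRNA in 786-O. Its lines overlapped through 786-O siRNA #1, and the log2 difference of -0.18 (interval -0.36 to -0.0017) did not pass the test (limma adjusted p = 0.0595). Without that library it was -0.24 and passed (limma adjusted p = 0.0167), and without 786-O NTC 1 it was -0.22 and passed (limma adjusted p = 0.0461).

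Among the Argonautes, AGO4, AGO1 and AGO3 lie next to each other on chromosome 1 (36273828 to 36323490, 36348810 to 36389899 and 36396683 to 36522063), and AGO2 lies on another chromosome. AGO2 was the most abundant, at 3.97 and 3.77 FPKM with NTC and 3.83 and 3.75 with siRNA in A498, and at 4.5 and 4.4 with NTC and 4.88 and 4.29 with siRNA in 786-O. The lines did not overlap, although the log2 difference of -0.23 (interval -0.35 to -0.11, limma adjusted p = 0.0032) was small and 75.1% of all genes tested differed by more. With the NTC libraries alone it was -0.20 (limma adjusted p = 0.0732), and with the siRNA libraries alone -0.26 (limma adjusted p = 0.0734), so neither passed.

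AGO1 was at 1.56 and 1.47 FPKM with NTC and 1.76 and 1.61 with siRNA in A498, and at 2.10 and 2.30 with NTC and 2.25 and 2.19 with siRNA in 786-O. The log2 difference was -0.45 (interval -0.59 to -0.30, limma adjusted p = 0.00032). AGO3 was at 0.853 and 1.16 FPKM with NTC and 0.959 and 0.974 with siRNA in A498, and at 1.45 and 1.58 with NTC and 1.44 and 1.56 with siRNA in 786-O. Its log2 difference, again with low genes kept in the fit, was -0.57 (interval -0.81 to -0.33, limma adjusted p = 0.0034). Neither gene overlapped between the lines. AGO4 was at 0.552 and 0.418 FPKM with NTC and 0.610 and 0.511 with siRNA in A498, and at 0.494 and 0.430 with NTC and 0.546 and 0.567 with siRNA in 786-O. The lines overlapped over most of this range. When low genes were kept in the fit, its log2 difference was 0.03, with an interval of -0.22 to 0.27.

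The summed FPKM of AGO1 to AGO4 was 6.83 to 7.16 in A498 and 8.55 to 9.11 in 786-O. AGO2 made up 55.2% ± 1.55 of this sum in A498 and 51.6% ± 1.74 in 786-O (SD, n = 4 each), AGO1 23.0% ± 1.28 and 25.3% ± 0.852, AGO3 14.2% ± 2.04 and 17.3% ± 1.12, and AGO4 7.51% ± 1.03 and 5.82% ± 0.681. None of these shares passed after adjustment over the 8 shares and ratios compared (two-sided exact permutation test of 4 against 4 libraries, adjusted p of 0.0762 for AGO1, AGO2 and AGO4 and 0.098 for AGO3). The smallest p of this design is 0.0286 before adjustment. A value at that p could not pass the adjustment over 8 by itself, so the test cannot show that the shares are alike. Of the 36-base stretches of the longest coding transcript of each, at most 0.221% were found in another Argonaute (GENCODE v44 transcripts). Few reads of these transcripts could therefore be shared between the 4 genes. Stretches found in any other gene made up 2.96% for AGO1, 0% for AGO2, 6.62% for AGO3 and 1.17% for AGO4.

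**Figure D3:**
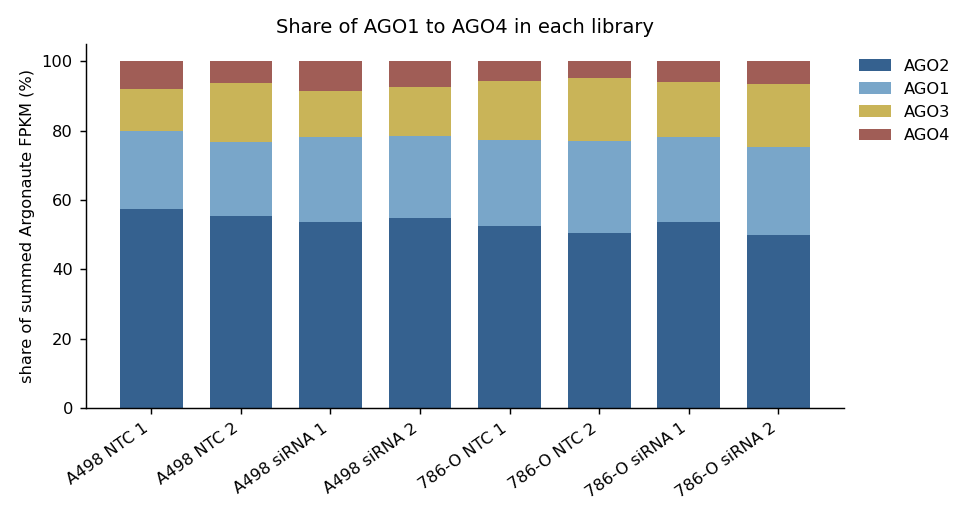
Share of AGO2, AGO1, AGO3 and AGO4 in their summed FPKM, as stacked bars from 0 to 100% for each of the 8 libraries. AGO2 holds the largest share in each, between 49.9% and 57.3%.

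TNRC6A (chromosome 16, 24741049 to 24837547) was at 5.78 and 6.28 FPKM with NTC and 6.06 and 5.98 with siRNA in A498, and at 5.38 and 5.02 with NTC and 5.85 and 4.77 with siRNA in 786-O. The lines overlapped through 786-O siRNA #1, at 5.85, and the log2 difference was 0.20 (interval 0.04 to 0.36, limma adjusted p = 0.0273). This call was lost without A498 NTC 2 (limma adjusted p = 0.0811), A498 siRNA #1 (0.0664), A498 siRNA #2 (0.0561), 786-O NTC 2 (0.0832) or 786-O siRNA #2 (0.0628), and with the NTC or the siRNA libraries alone (0.091 and 0.259). The other GW182 genes were below the filter. TNRC6B was at 0.520 to 0.668 FPKM in A498 and 0.462 to 0.498 in 786-O, and TNRC6C at 0.720 to 0.804 and 0.186 to 0.248.

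Ratios within a library compare steps of the pathway. The ratio of TNRC6A to the summed Argonautes was 0.834 to 0.919 in the A498 libraries and 0.554 to 0.642 in the 786-O libraries, with no overlap (difference of the log2 ratios 0.53). DROSHA stood at 1.40 to 1.71 times DGCR8 in A498 and 1.58 to 2.03 times in 786-O, and XPO5 at 6.15 to 7.13 and 7.12 to 8.15 times DICER1. The ratio of DICER1 to TARBP2 was 0.0222 to 0.0284 in A498 and 0.0287 to 0.0451 in 786-O. By the same exact permutation test, adjusted p-values were 0.0762 for TNRC6A to Argonautes, XPO5 to DICER1 and DICER1 to TARBP2, and 0.114 for DROSHA to DGCR8, so no ratio passed. As with the shares, a ratio could not have passed by itself in this design, even with no overlap between the lines. Taking the highest entry of each gene in place of the sum moved the difference of the log2 ratios (A498 minus 786-O) from -0.19 to -0.57 for DROSHA to DGCR8, from -0.45 to -0.20 for DICER1 to TARBP2 and from -0.21 to -0.33 for XPO5 to DICER1, with adjusted p of 0.0762, 0.543 and 0.359 by the exact permutation test.

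The spread between libraries could be set against counting error where the number of reads behind a value could be worked out from its interval. AGO4 rested on 88 to 201 reads per library, which alone gives a coefficient of variation of 9.03% in A498 and 8.08% in 786-O, and the observed ones were 15.5% and 12.0%. AGO1 rested on 294 to 1084 reads and AGO2 on 311 to 908. XPO5, with 823 to 3760 reads, varied by less than its counting error of 2.97% in A498 and by about as much as the 1.99% in 786-O. For TNRC6A the interval gave no whole number of reads in any library, so its 1608 to 2669 reads in 786-O are approximate. TNRC6A varied by 8.98% there against a counting error of about 2.3%. The observed spreads are over the NTC and siRNA libraries of a line together. The expected figures cover counting error only.

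The second comparison asked whether the genes changed with SLINKY knockdown, in which the 2 siRNAs served as the replicates. None of the 9 genes tested passed the test over both lines (limma adjusted p from 0.421 to 0.999). Of all genes tested, 1 passed, or 0.0088%, and 11.4% had an unadjusted p under 0.05, as had 2 of the 9. The median change of the 9 was -0.00063 on the log2 scale, against 0.01 over all genes. Within A498 none of the 9 passed (0.176% of all genes did) and none had an unadjusted p under 0.05. The same held within 786-O (0.141% of all genes) and for the interaction of knockdown and line (0.141%).

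Of the 9 genes tested, TARBP2 and DGCR8 had the largest fitted changes, neither past the test. TARBP2 was lower than the mean of its NTC libraries with each siRNA in each line, at log2 changes of -0.25 (siRNA #1) and -0.11 (siRNA #2) for A498 and -0.35 and -0.06 for 786-O. The fit over both lines gave -0.19 (interval -0.37 to -0.01, unadjusted p = 0.0383, limma adjusted p = 0.421). When the highest entry of the gene was taken in place of the sum, the change was -0.07. DGCR8 was also lower with each siRNA, at -0.06 and -0.23 for A498 and -0.32 and -0.04 for 786-O, and the fit gave -0.16 (interval -0.32 to -0.0033, unadjusted p = 0.0465, limma adjusted p = 0.434). In 786-O siRNA #1, which set the larger change of both genes in that line, the DGCR8 entry NM_001190326 was at 0.00049 FPKM, against 1.63 to 3.19 in the other 786-O libraries, while the entry NM_022720 was at 6.48. Without this library the fitted changes were -0.13 for TARBP2 and -0.10 for DGCR8.

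For the other genes the intervals of the change over both lines show what size could have gone unseen. XPO5 lay within -0.07 to 0.07 on the log2 scale, DROSHA within -0.09 to 0.08, AGO2 within -0.11 to 0.12 and TNRC6A within -0.15 to 0.17. AGO1 gave 0.08 (interval -0.07 to 0.23), DICER1 -0.01 (-0.24 to 0.22) and AGO3 -0.03 (-0.27 to 0.22). For AGO3 this rests on the sum of its 2 entries, since its highest entry alone gave -0.46 (limma adjusted p = 0.531), with the share of that entry differing between libraries. AGO4 lay above the mean of its NTC libraries with each siRNA, by 0.28 and 0.06 in A498 and 0.20 and 0.25 in 786-O, while its A498 NTC libraries differed from each other by 0.33. With low genes kept in the fit it gave 0.20 (interval -0.04 to 0.45, limma adjusted p = 0.688).

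By a log2 change of at least 0.32 either way in single libraries, the size of the study's own threshold, only 786-O siRNA #1 held any of the 10 genes past it, TARBP2 and DGCR8. Read in single libraries this threshold has no replicate check, while the study also took the transcripts shared by both siRNAs and by both lines. Of all genes tested, 7.53% were past it in that library, 5.77% in 786-O siRNA #2, 5.57% in A498 siRNA #1 and 7.4% in A498 siRNA #2. The same threshold between the 2 NTC libraries was passed by 6.31% of genes in A498, AGO3 and AGO4 among them, and by 6.12% in 786-O, with none of the 10.

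**Figure D4:**
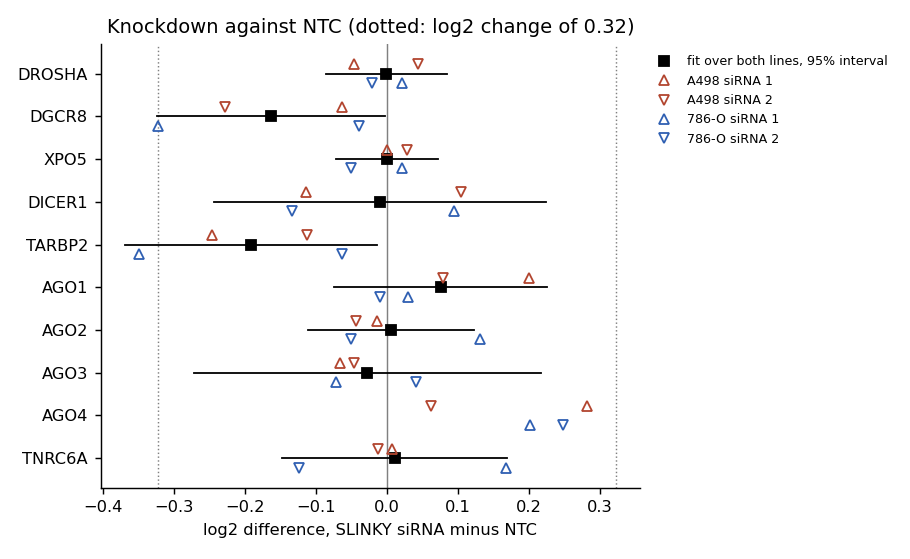
Log2 difference of SLINKY siRNA minus NTC for the 10 genes. Squares with bars are the limma fit over both lines with its 95% interval (none for AGO4), triangles are single siRNA libraries against the NTC mean of their line (red, A498; blue, 786-O; pointing up, siRNA #1; pointing down, siRNA #2), and dotted lines mark a log2 change of 0.32. TARBP2 and DGCR8 lie left of 0 in all 4 libraries and AGO4 right of 0.

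A wider list of 71 genes that work with the machinery was read by role. Of these, 58 were tested, 12 were below the filter and 1, CNOT6, had no value. Between the lines 51 of the 58 were called (87.9%, beside 80.5% of all genes), with a median log2 difference of -0.24. Of the 58, 33 were called as higher in 786-O and 18 as higher in A498, beside 41.4% and 39.1% of all genes. These counts, and the counts by role below, are not read as results about the genes. TUT4 is among the 33 although it passed the filter through 786-O alone. With knockdown 0 of the 58 passed (limma, both lines), 6 had an unadjusted p under 0.05, and the median change was 0.03. RBFOX2, 1 of the 58, is listed by the study among transcripts raised by both siRNAs in both lines, by its fold threshold. Its fit over both lines here, on summed entries, gave -0.07 (limma adjusted p = 0.646).

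Of the 9 Microprocessor partners and nuclear cofactors, 6 were higher in 786-O, 2 in A498 and 1 was not called. The cap-binding protein NCBP1 was at 8.95 FPKM in A498 and 15.1 in 786-O (log2 difference -0.75, limma adjusted p = 6.9e-07), and KHSRP, which binds the loops of some precursors, was at 28.8 and 46.2 (-0.68). Both export genes, RAN, the GTPase that exportin-5 needs, and XPO1, were higher in 786-O, with log2 differences of -0.21 and -0.29.

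Of 6 Dicer partners and double-strand RNA-binding proteins, 3 were higher in each line. PRKRA (PACT), a partner of DICER1 and activator of the kinase PKR, was at 11.7 FPKM in A498 and 19.2 in 786-O (log2 difference -0.72). EIF2AK2, which encodes PKR, was at 9.43 in A498 and 3.09 in 786-O (1.58, limma adjusted p = 7.61e-08), and ADAR, which edits adenosines in double-stranded RNA, at 51.0 and 25.0 (1.03). Both are also known as interferon-induced genes.

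Of the 12 tested genes of Argonaute loading and regulation, 7 were higher in 786-O and 2 in A498. FKBP4, a co-chaperone of HSP90, had the largest difference of the list, at 34.0 FPKM in A498 and 115 in 786-O (log2 difference -1.76, or 3.39-fold, limma adjusted p = 1.52e-08). The chaperone HSPA8 was at 818 and 1340 FPKM (-0.71).

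Of the 18 tested silencing effectors, 11 were higher in 786-O and 5 in A498. The poly(A)-binding protein PABPC1 was at 209 FPKM in A498 and 457 in 786-O (log2 difference -1.13), and the deadenylase subunit PAN2 at 1.28 and 2.52 (-0.93). The decapping enzyme DCP2 was at 2.34 and 4.02 (-0.74), with an estimate marked as failed in at least 1 library. In the other direction, the deadenylase subunit CNOT7 was at 26.4 FPKM in A498 and 16.9 in 786-O (0.64). XRN1 and DCP1A fell below the filter, and their values are not read as low expression. For XRN1, a transcript entry over the same span matched no symbol and was at 0.815 to 1.32 FPKM. For DCP1A no estimate was marked as failed, and the reason for its values near 0 was not tested.

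Of the 11 tested genes of small RNA turnover and tailing, 6 were higher in A498 and 4 in 786-O. Among the 4, TUT4 passed the filter through 786-O alone, with means of 0.984 FPKM in A498 and 1.45 in 786-O. TUT4 and TSN, also among the 4, each had an estimate marked as failed in at least 1 library. Among those higher in A498 were TENT2, which adds adenosines to RNA ends, at 9.31 FPKM in A498 and 3.65 in 786-O (log2 difference 1.32), and the uridylyl transferase TUT7 at 4.46 and 1.93 (1.16). The exonuclease ERI1 was at 7.21 and 4.02 (0.82), TSNAX, a subunit of the C3PO nuclease, at 20.8 and 14.4 (0.53), and the exonuclease XRN2 at 20.0 and 14.1 (0.50). The PIWI genes were low, with PIWIL4 the highest at 0.196 to 0.234 FPKM in A498 and 0.443 to 0.608 in 786-O, and LIN28B was at 0 in every library.

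**Figure D5:**
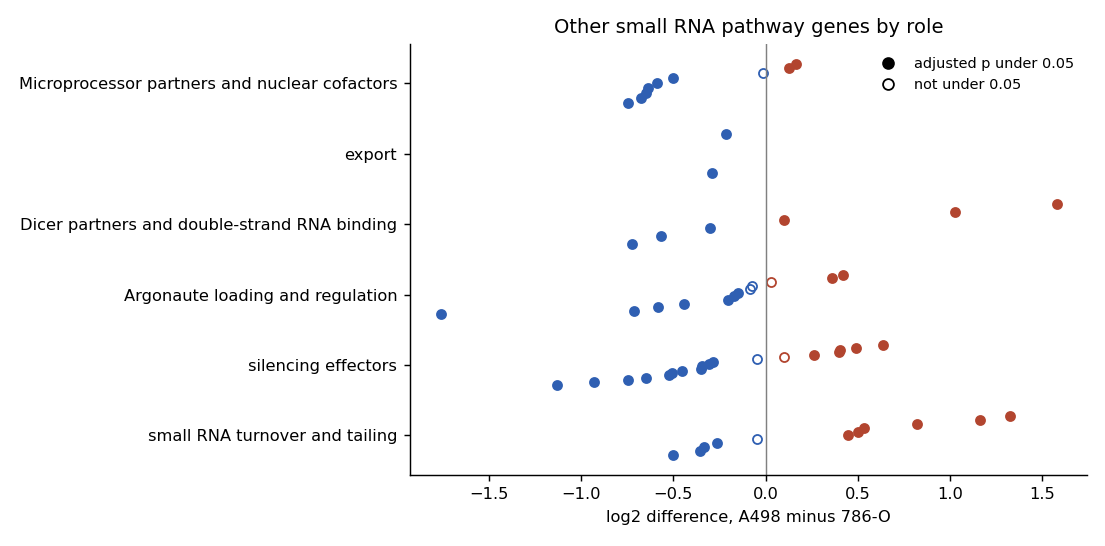
Log2 difference of A498 minus 786-O for the 58 tested genes of the wider list, 1 row of points per role, with filled points past an adjusted p of 0.05 (limma). FKBP4 lies farthest left at -1.76 and EIF2AK2 farthest right at 1.58.

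With knockdown, the largest fitted changes of the wider list over both lines, none past the test, were those of DCP2 at 0.23 (limma adjusted p = 0.524), EIF2AK2 at 0.22 (0.336) and ERI1 at 0.16 (0.445) upward. Downward they were EIF4E2, a cap-binding repressor, at -0.14 (0.43), CNOT3 at -0.09 (0.492) and FKBP4 at -0.09 (0.48).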

How the data were processed

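The authors sequenced single-end 36 bp reads from unstranded TruSeq libraries of total RNA, mapped them to hg19 and deposited FPKM values with their intervals, which Cufflinks gave for each library separately. TopHat2 2.0.0 and Cufflinks 2.0.2 are named in the submitters' processing notes. Cufflinks divides reads between overlapping entries, and no scaling between libraries is stated. Each table holds 75378 entries, of which 43150 are RefSeq transcripts; 96.6% of these were matched to a symbol through a RefSeq gene table of GRCh38, used for names only. FPKM was summed per symbol, and for 0 of the 10 genes did an unmatched entry cover the span. No counts were used.

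The 11365 genes that averaged 1 FPKM or more over the 8 libraries were tested on log2(FPKM + 0.1) with limma 3.58.1 (R 4.3.3), letting the variance follow the mean level, and p-values were adjusted by Benjamini-Hochberg over all of them (threshold 0.05). A fold change on this scale understates the change of low genes. The line and the knockdown were fitted together over 8 libraries, and the knockdown also within each line and as an interaction. Shares and ratios were compared by exact permutation tests over 70 arrangements. Intervals are 95% intervals. Reads behind a value were computed from its deposited interval.

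The 10 genes and the wider list were chosen with earlier results of these data known. Of the wider list, up to 8 called genes in each direction with the largest difference between the lines were to be named, and for the knockdown the 3 largest changes in each direction. RAN, XPO1, RBFOX2, TNRC6B, TNRC6C, CNOT6, DCP1A, XRN1, TUT4, TSN, PIWIL4 and LIN28B were named after their values were seen. Alternatives are given in the closing section. Calculations outside R used Python 3.11.15, numpy 2.4.6, pandas 2.3.3 and matplotlib 3.10.9.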

Additional observations from a re-analysis of the deposited data

How the results depend on the processing

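No count of called members or of other called pathway genes moved past 1.5 times under any alternative. Between the lines 8 of the 9 tested members were called, beside 80.5% of all genes tested, so this count is not a result about them. It includes DICER1 and AGO3, which passed the filter through 786-O alone. With 1 library left out it was 7 to 9, beside 8817 to 8991 of all 11365 genes. With the NTC or the siRNA libraries alone it was 6, beside 7835 and 7783 of all genes. The counts over all genes for the knockdown were less stable. With genes spanning under 200 bp left out, 0 genes passed over both lines (1 in the reported fit), 3 within A498 (20), 0 within 786-O (16) and 1 for the interaction (16). With no filter on low values, 1, 5 and 30 passed within A498, within 786-O and for the interaction. With a pseudocount of 1, 11 passed within A498, and with 0.01, 7 for the interaction. With 1 library of the fit left out, 1 to 3 genes passed over both lines, 48 to 61 within A498, 29 to 41 within 786-O and 28 to 38 for the interaction, so every omission moved the counts within a line and of the interaction by over 1.5 times; the causes were not tested. In the knockdown groups the number names the siRNA, so the same number is the same siRNA in both lines (r = 0.157 between their deviations), while no label ties the other numbers together and r ranged from -0.147 to 0.171 over the 6 pairs of groups. With the replicate number as a block 0, 4 and 9 genes passed within A498, within 786-O and for the interaction, and TARBP2 passed between the lines (limma adjusted p = 0.0299). TARBP2 also passed with short genes left out (0.035) and with its highest entry only (log2 difference -0.31, 0.0109), and TNRC6A did not pass with no filter (0.0604). With the highest entry per gene, the AGO3 knockdown change was -0.46, the AGO3 share differed by -5.02 percentage points between the lines (-3.01 with the sum), and the ratios moved as given above. Knockdown changes near 0 turned their sign: with median-ratio scaling AGO2 gave -0.0064 and TNRC6A -0.0015, and with 1 library left out the ranges were -0.037 to 0.035 for AGO2, -0.11 to 0.056 for AGO3, -0.055 to 0.038 for DICER1, -0.018 to 0.017 for DROSHA, -0.012 to 0.017 for XPO5 and -0.050 to 0.066 for TNRC6A. Leaving out genes with a failed estimate was chosen after seeing the data and changed no call of a member.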
